A study of Mus musculus with 4 samples.

Results

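Cathepsins, legumain and cystatin C are the main proteases of the lysosome and one of their inhibitors. The 10 genes described here were taken by symbol from the 32285 genes in the files: the cysteine cathepsins Ctsb, Ctsh, Ctsk, Ctsl, Ctss and Ctsz, the aspartic cathepsin Ctsd, the serine carboxypeptidase Ctsa, the asparaginyl endopeptidase legumain (Lgmn) and cystatin C (Cst3). That choice used no threshold on a measured value, but it was made with earlier results of these data known. In macrophage-like cells of the mouse heart, 9 of the 10 were measured at a mean of at least 10 CPM, the UMIs of a gene per 1000000 UMIs of the class, and Ctsk was not.

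Cathepsins are made as inactive proenzymes, carried to endosomes and lysosomes largely by mannose 6-phosphate receptors, and matured there at acid pH by one another and by legumain. In macrophages they break down engulfed cells and proteins, trim antigens and the invariant chain of MHC class II, and, once secreted, cleave elastin and collagen of the matrix. Cystatin C is a secreted inhibitor that binds cysteine cathepsins and, through a separate face, legumain, but not aspartic or serine proteases. What follows is RNA, and says nothing of proenzyme, mature enzyme or activity.

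The study set out to learn how a DNA-damaging chemotherapy shapes cardiac macrophages. Mice had intraperitoneal injections of carboplatin, a platinum drug that crosslinks DNA (45 mg/kg), or of PBS, over 2 weeks with 2 injections in each, and then recovered for 4 weeks. A minipump under the skin then delivered either angiotensin II at 1.5 mg/kg per day with PE at 50 mg/kg per day (AngII/PE), or saline, and hearts were taken after 7 days. The 4 groups are therefore carboplatin with AngII/PE, PBS with AngII/PE, carboplatin with saline and PBS with saline. All were adult mice of mixed sex whose strain and exact age are not given in the labels, 5 hearts were pooled per group, and each group was 1 droplet single-cell RNA library. The sort was for CD64+ cells that were CD45+ and CD11b+, Ly6G negative and Ly6C low.

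Since every group is a single library, the spread between replicates is unknown, no test was run and every ratio compares libraries. Each ratio carries an exact conditional binomial 95% interval that covers counting error only. The libraries held 5997 to 8012 barcodes and 62943457 to 95752612 UMIs, of which 3484 to 5669 cells passed the filters, 17312 in all. The carboplatin saline library stood apart, with 43.2% of its barcodes over the mitochondrial limit against 22.7% to 31.1% in the others. Cell barcodes shared by 2 libraries numbered 1 to 10 per pair.

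Macrophage-like cells numbered 3919 (carboplatin AngII/PE), 2136 (PBS AngII/PE), 1018 (carboplatin saline) and 1946 (PBS saline). In the same order that was 69.1%, 55.5%, 29.2% and 45.2% of the cells kept, with median depths of 14001, 14884, 16379 and 13528 UMIs. All 10 macrophage markers, the sorted CD64 gene Fcgr1 and the complement genes C1qa, C1qb and C1qc among them, were detected in every library. Clusters that carried macrophage markers but got no name, 2 of 3 for low UMI counts, held a further 15.9%, 23.6%, 33.3% and 27.4%, again in that order. The class was held by different clusters under the pumps: a resident-like cluster held 1.10% (carboplatin AngII/PE) and 4.12% (PBS AngII/PE), against 81.3% (carboplatin saline) and 90.5% (PBS saline). A difference between pumps therefore joins cells of different clusters with any change inside a cluster, and ratios over the class and inside clusters are given here.

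Stretches of 5 promoters are shown because matches of the searched motifs were found in them, and 4 of the 5 hold CACGTG, the letters at the core of the element that TFEB, TFE3 and MITF bind at lysosomal genes. They come from RefSeq on GRCm38.p6, each read 5′ to 3′ on the strand of its gene, and capitals mark the motifs. The stretch of Ctsd is chr7:142387828-142388077 on the minus strand and ends 1 base before the start of transcription. That of Ctsl is chr13:64370671-64370770 on the minus strand, the first 100 bases of the window that opens 250 bases before the start. For Lgmn it is chr12:102439093-102439192 on the minus strand, bases -100 to -1 from the second of 2 RefSeq starts. For Ctsa it is chr2:164833713-164833802 on the plus strand, bases -60 to 30 around the second of 2 starts. For Ctss it is chr3:95526686-95526815 on the plus strand, bases -100 to 30.
Ctsd: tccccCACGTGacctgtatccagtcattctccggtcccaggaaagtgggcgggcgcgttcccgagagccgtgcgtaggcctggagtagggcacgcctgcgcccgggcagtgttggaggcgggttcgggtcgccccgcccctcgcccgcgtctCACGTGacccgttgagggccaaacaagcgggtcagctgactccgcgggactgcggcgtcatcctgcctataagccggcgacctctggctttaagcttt
Ctsl: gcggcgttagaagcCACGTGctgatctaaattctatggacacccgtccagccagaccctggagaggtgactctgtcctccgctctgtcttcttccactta
Lgmn: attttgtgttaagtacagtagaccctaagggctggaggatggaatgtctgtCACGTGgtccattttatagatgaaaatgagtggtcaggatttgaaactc
Ctsa: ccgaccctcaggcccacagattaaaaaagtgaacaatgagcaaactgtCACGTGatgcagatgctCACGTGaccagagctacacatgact
Ctss: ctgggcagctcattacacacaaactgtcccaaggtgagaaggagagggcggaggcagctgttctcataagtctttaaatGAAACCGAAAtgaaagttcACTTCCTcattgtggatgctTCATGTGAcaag

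Windows of 250 bases before to 50 after the start were found for 8 of the 10 genes, 10 windows in all, and none was matched for Ctsb and Ctsh. CACGTG, which reads alike on both strands, was in 4 of these 10 windows, those of Ctsd, Ctsl, Lgmn and Ctsa, with 2 matches each in Ctsd and Ctsa. Of 32851 mouse promoter windows of the same length, 7.15% held it. The windows at the first listed starts of Ctsa and Lgmn held none. The printed stretches of Ctsl, Lgmn and Ctsa lie wholly inside the spans of the genes given below. That of Ctsd lies partly inside, since the span of Ctsd ends at base 142388038 and the stretch runs from 142387828 to 142388077. The RefSeq start of Ctsd thus also lies inside that span. The stretch of Ctss enters its span only where it runs past the start. The longer palindrome, with GT before and AC after CACGTG, was in none of the 10 windows and in 0.326% of all. Ctss held 3 other motifs. These were GAAA repeated after any 2 bases (an interferon response type, 3.44% of all windows), AGGAAGT on the opposite strand, printed as ACTTCCT (a PU.1 type, 9.35%), and TCATGTGA (0.986%), which shares no letters with the other 2. Both strands were searched, and a match describes letters only.

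The genes lie on 7 chromosomes of mm10, the build of the files. Ctsk (chr3:95499256-95509362) and Ctss (chr3:95526786-95556403) are neighbours on the plus strand of chromosome 3, 17424 bases apart. Ctsa (chr2:164832873-164841032, plus strand), Ctsz (chr2:174427493-174439039, minus) and Cst3 (chr2:148871722-148875692, minus) share chromosome 2 without being neighbours. The others are Ctsb (chr14:63122462-63145923, plus), Ctsd (chr7:142375911-142388038, minus), Ctsh (chr9:90054152-90076089, plus), Ctsl (chr13:64359337-64370890, minus) and Lgmn (chr12:102394084-102439813, minus). Ctsa, Ctsb, Ctsl and Ctsz overlap a gene on the opposite strand, and no source used here says whether the counting used strand. Of these partners Pltp, which overlaps Ctsa, had 9723 to 32090 UMIs per library in macrophage-like cells, so the Ctsa values may hold reads of it. The partner of Ctsl, Gm47123, had 11 to 37.

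Together the 10 genes took 1.54% (carboplatin AngII/PE) and 1.44% (PBS AngII/PE) of the UMIs of macrophage-like cells, against 0.887% (carboplatin saline) and 0.894% (PBS saline). AngII/PE gave the largest differences. Of the 9 measured genes, 7 were at least 1.5-fold higher under AngII/PE than under saline after carboplatin, where 7.59% of the 8493 genes compared were. After PBS 7 of 9 were as well, where 8.22% of genes were. None of the 9 was 1.5-fold lower in either setting, where 7.52% and 8.89% of genes were. At least 2-fold higher were 4 of 9 after carboplatin, Ctsd, Ctsl, Lgmn and Ctsb, where 1.88% of genes were, and 3 of 9 after PBS, the same without Ctsb, where 2.85% were. Their median log2 ratio was 0.78 after carboplatin and 0.80 after PBS, beside 0.03 and 0.01 over all genes. The sets of 7 were not the same: Ctsz was in the set after carboplatin only, at a ratio of 1.51 against 1.41 after PBS, and Ctss in the set after PBS only, at 1.39 after carboplatin and 1.65 after PBS. Ctsz and Ctss thus lay near the limit.

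Ctsd, the aspartic endopeptidase that degrades bulk protein and helps activate other lysosomal proenzymes, stood at 1467 CPM (carboplatin AngII/PE) and 1326 CPM (PBS AngII/PE), against 253 CPM (carboplatin saline) and 317 CPM (PBS saline). Both AngII/PE libraries lay far above both saline libraries. The ratio was 5.81 (5.63 to 5.99) after carboplatin, above that of 99.9% of the genes compared, and 4.18 (4.09 to 4.28) after PBS, above that of 99.4%. In values per cell, 77.7% of macrophage-like cells of carboplatin AngII/PE and 56.7% of those of PBS AngII/PE exceeded the 90th percentile of the saline library of the same pretreatment. The median cell held 1022 and 815 CPM under AngII/PE, against 115 and 194 CPM under saline, in the order carboplatin, PBS. Ctsd was also among the 10 genes with the largest fold over all other cells in 2 of the clusters common under AngII/PE. Its difference over the class and the make-up of the class are therefore not separate observations. The marker lists that named the clusters did not hold Ctsd.

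**Figure D1:**
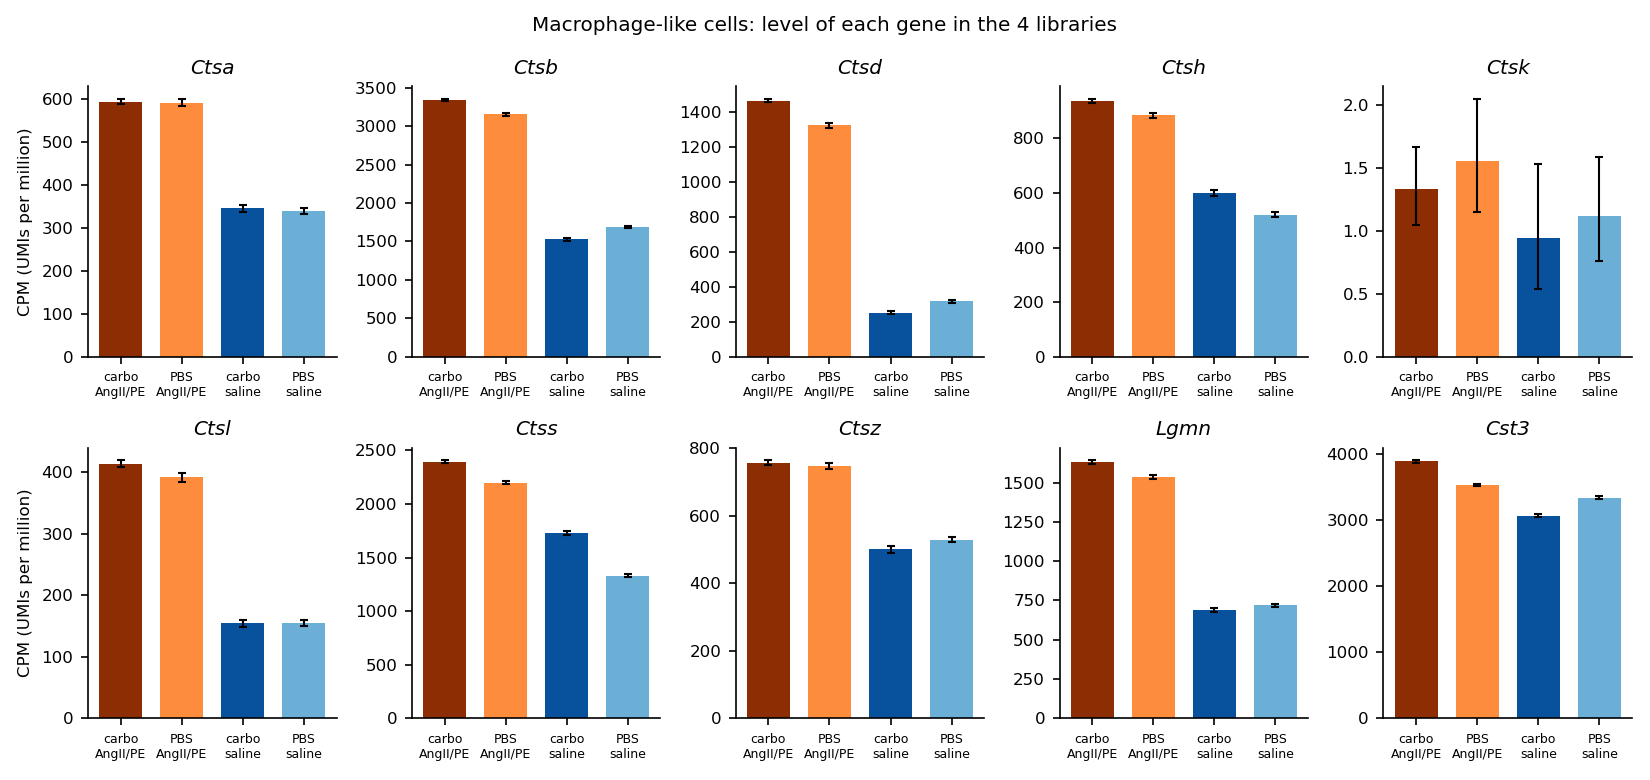
Level of each of the 10 genes in macrophage-like cells, in CPM (linear axes from 0), in the 4 libraries; carbo stands for carboplatin, bars are the library's summed value and whiskers the exact Poisson 95% interval, which covers counting error only. The AngII/PE bars (brown, orange) are above the saline bars (blue) for every gene, with Ctsd at 1467 and 1326 against 253 and 317 CPM, and with intervals that overlap between pumps for Ctsk alone.

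Ctsl, a cysteine endopeptidase that cleaves matrix and, in mouse thymus epithelium, the invariant chain, stood at 414 CPM (carboplatin AngII/PE) and 391 CPM (PBS AngII/PE), against 154 CPM (carboplatin saline) and 155 CPM (PBS saline). The values paired by pump and were nearly alike within each pump. Its ratio was 2.68 (2.58 to 2.80) after carboplatin and 2.52 (2.44 to 2.61) after PBS. Ctsb, a cysteine protease that acts both inside chains and as a dipeptidyl carboxypeptidase, stood at 3338 and 3152 CPM under AngII/PE, against 1528 and 1689 CPM under saline, carboplatin library first in each pair. Its ratio was 2.18 (2.16 to 2.21) after carboplatin and 1.87 (1.85 to 1.89) after PBS.

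Ctss, the cysteine endopeptidase that makes the last cuts of the invariant chain in antigen-presenting cells and stays active at neutral pH, stood at 2394 CPM (carboplatin AngII/PE) and 2199 CPM (PBS AngII/PE), against 1728 CPM (carboplatin saline) and 1332 CPM (PBS saline). Here the saline libraries differed from each other as well. The ratio was 1.39 (1.37 to 1.40) after carboplatin and 1.65 (1.63 to 1.67) after PBS. Ctsh, mainly an aminopeptidase, stood at 937 and 884 CPM under AngII/PE, against 600 and 521 CPM under saline in the same order, with ratios of 1.56 (1.53 to 1.60) after carboplatin and 1.70 (1.66 to 1.73) after PBS. Ctsz, a carboxypeptidase that removes single residues, stood at 756 and 747 CPM under AngII/PE, against 499.9 and 529 CPM under saline. Its ratios were 1.51 (1.48 to 1.55) after carboplatin and 1.41 (1.38 to 1.44) after PBS.

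Ctsk, the collagenase of osteoclasts, was close to the floor in macrophage-like cells, with 75 (carboplatin AngII/PE) and 50 UMIs (PBS AngII/PE), against 16 (carboplatin saline) and 31 UMIs (PBS saline). That is 1.33 and 1.55 CPM, against 0.939 and 1.11 CPM. The interval of the ratio included 1 after carboplatin (1.41, 0.817 to 2.60) and after PBS (1.39, 0.871 to 2.25), so no difference was detectable at this depth.

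Ctsa, a serine carboxypeptidase that also holds neuraminidase and beta-galactosidase together in the lysosome, stood at 593 CPM (carboplatin AngII/PE) and 591 CPM (PBS AngII/PE), against 345 CPM (carboplatin saline) and 339 CPM (PBS saline). The values of each pump were alike, and the interval of the carboplatin ratio includes 1 under both pumps. The ratio was 1.72 (1.67 to 1.77) after carboplatin and 1.74 (1.70 to 1.79) after PBS. Lgmn, which cuts after asparagine and converts several cysteine cathepsins from single-chain to cleaved forms, stood at 1630 and 1534 CPM under AngII/PE, against 687 and 720 CPM under saline, carboplatin library first. Its ratio was 2.37 (2.33 to 2.42) after carboplatin and 2.13 (2.10 to 2.17) after PBS. As many as 68.5% (carboplatin AngII/PE) and 59.4% (PBS AngII/PE) of cells exceeded the 90th percentile of their saline library for Lgmn.

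The inhibitor differed least. Cst3 stood at 3890 CPM (carboplatin AngII/PE) and 3533 CPM (PBS AngII/PE), against 3071 CPM (carboplatin saline) and 3339 CPM (PBS saline). All 4 values lie close together, and the order of the saline libraries was the opposite of that of the AngII/PE libraries. The ratio was 1.27 (1.25 to 1.28) after carboplatin and 1.06 (1.05 to 1.07) after PBS, and 77.3% and 57.8% of the genes compared had a lower one. For Cst3, 22.8% of cells of carboplatin AngII/PE and 11.1% of those of PBS AngII/PE exceeded the 90th percentile of their saline library, which 10% of saline cells exceed by definition. In the unnamed clusters with macrophage markers Cst3 was instead lower under AngII/PE, at 1903 and 1728 CPM against 2358 and 2187 CPM, carboplatin first.

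**Figure D2:**
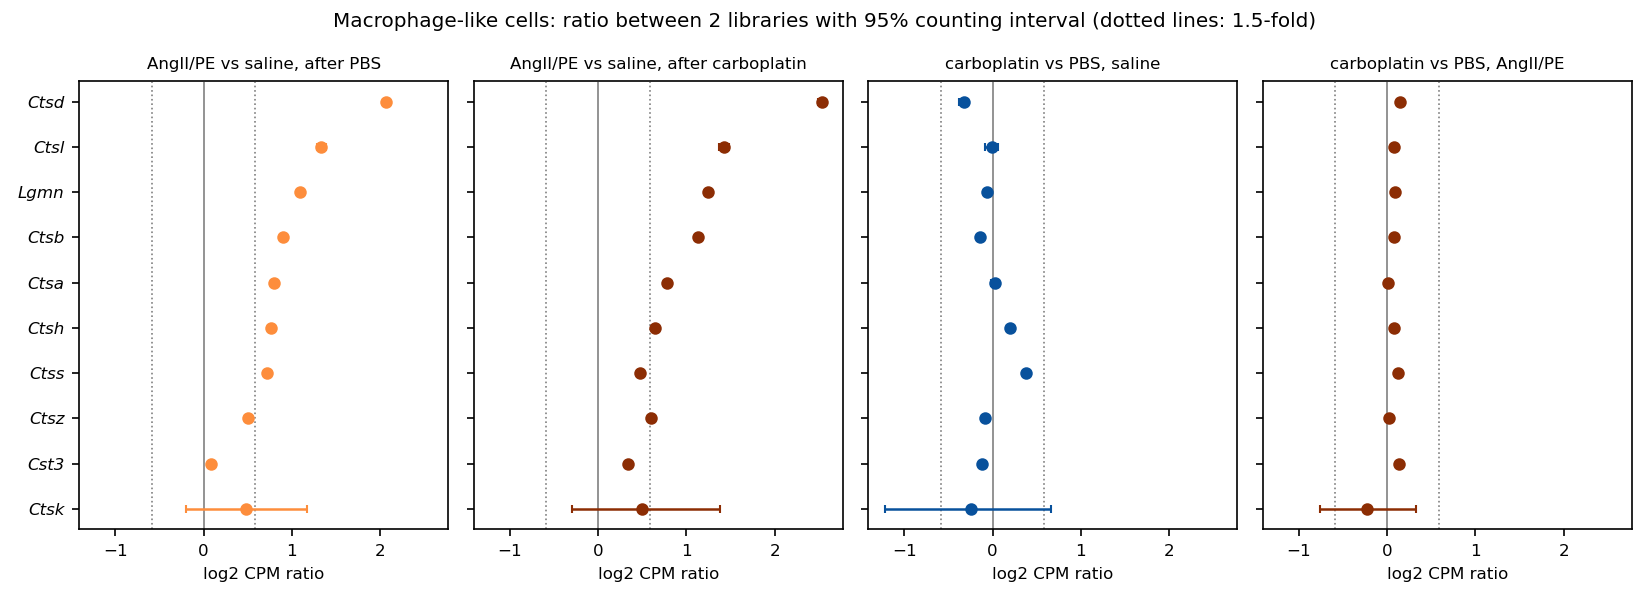
Log2 CPM ratio of each gene between 2 libraries of macrophage-like cells, in 4 comparisons; points are ratios, whiskers 95% counting intervals (often within the point), and dotted lines mark 1.5-fold. In the 2 left panels the 9 measured genes are all right of 0, Ctsd farthest at 2.54 after carboplatin and 2.06 after PBS, and in the 2 right panels all 9 lie between the dotted lines.

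Shares of cells with a UMI were compared after thinning each cell to 2000 UMIs, which left out 2 to 24 macrophage-like cells per library. For Ctsd the share was 79.1% (carboplatin AngII/PE) and 72.1% (PBS AngII/PE), against 25.1% (carboplatin saline) and 36.2% (PBS saline). Unthinned it was 97.9%, 96.2%, 78.7% and 84.7%, in the same order. Endothelial-like cells had 40.3% and 37.8% after thinning, against 19.6% and 22.9%, so under saline the Ctsd share of macrophage-like cells was not far above theirs. For Lgmn it was 92.7% and 89.9%, against 69.1% and 73.6%, and in endothelial-like cells, which also carry some macrophage RNA, 18.1% and 13.1%, against 5.94% and 6.13%. For Ctsl it was 49.6% and 47.7%, against 23.9% and 24.1%, but endothelial-like cells had 48.1% and 47.7%, against 32.2% and 40.5%, so the Ctsl share does not mark macrophages. Before thinning the endothelial-like cells had median depths of 9944, 9909, 6399 and 5869 UMIs, and 36, 21, 116 and 109 of them were left out, in the same order. Ctsb, Ctss and Cst3 had a UMI in at least 88.3% of thinned macrophage-like cells of every library, where a share no longer shows differences in level.

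Over the whole class none of the 9 measured genes was 1.5-fold apart between carboplatin and PBS under the saline pump, where 3.79% of all genes were, although Ctsd was inside the resident-like cluster. This comparison shows what remained 4 weeks after the drug and 7 days of saline infusion. The widest ratios were those of Ctss, 1.30 (1.28 to 1.32), and Ctsd, 0.797 (0.768 to 0.826), and 95.7% and 7.25% of the genes compared had a lower ratio. Ctsh followed at 1.15 (1.12 to 1.18). Ctsb was at 0.905, Cst3 at 0.920, Ctsz at 0.945 and Lgmn at 0.954, each with an interval below 1. Ctsl at 0.993 and Ctsa at 1.02 had intervals that include 1. Their median log2 ratio was -0.07, beside -0.03 over all genes.

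Under AngII/PE the carboplatin and PBS libraries were closer still. None of the 9 genes was 1.5-fold apart, where 1.42% of all genes were. All 9 ratios were above 1, between 1.00 (Ctsa) and 1.11 (Ctsd, 1.09 to 1.12), with a median log2 ratio of 0.08, beside 0.00 over all genes. Cst3 had 1.10 (1.09 to 1.11) and Ctss 1.09 (1.08 to 1.10). For 6 of the 9 genes the carboplatin library was the higher under AngII/PE and the lower under saline. For Ctsb, Ctsd, Lgmn and Cst3 both intervals exclude 1, and for Ctsl and Ctsz at least 1 interval includes it. Whether the carboplatin ratio differs between the pumps was not tested. The comparisons share libraries, so the pump and carboplatin ratios of a gene are not independent of each other.

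The levels of the 9 measured genes followed the clusters in several orders. Ctsd was highest in the lipid-associated-like cluster, at 4046 CPM (carboplatin AngII/PE, 290 cells) and 3898 CPM (PBS AngII/PE, 195 cells), then in the cluster without a subset name at 1611 and 1426 CPM. Next came the inflammatory-like cluster at 1333 and 1166 CPM, the interferon-like one at 941 and 966 CPM, the MHC class II-like one at 657 and 612 CPM and the resident-like one at 475 CPM in PBS AngII/PE. The lipid-associated-like cluster also had the highest Ctsb (5994 and 6548 CPM), Ctsl (800.4 and 708 CPM), Lgmn (2028 and 2098 CPM), Ctsa (769 and 836 CPM) and Ctsz (944 and 1032 CPM). Ctsd was itself among the top genes of the lipid-associated-like cluster and of the cluster without a subset name. The levels are given as a description.

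Ctsh and Cst3 had another order. Under AngII/PE the MHC class II-like cluster was highest for Ctsh, at 1138 (carboplatin) and 1078 CPM (PBS), and for Cst3, at 4300 and 4096 CPM, while the lipid-associated-like cluster was the lowest of those with at least 50 cells for Cst3, at 3431 and 2946 CPM. For Ctss the lipid-associated-like (2898 and 2841 CPM) and the interferon-like cluster (2827 and 2841 CPM) were highest and nearly equal. Clusters with fewer than 50 cells in a library were not read, which leaves the resident-like and MHC class II-like clusters under saline.

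**Figure D3:**
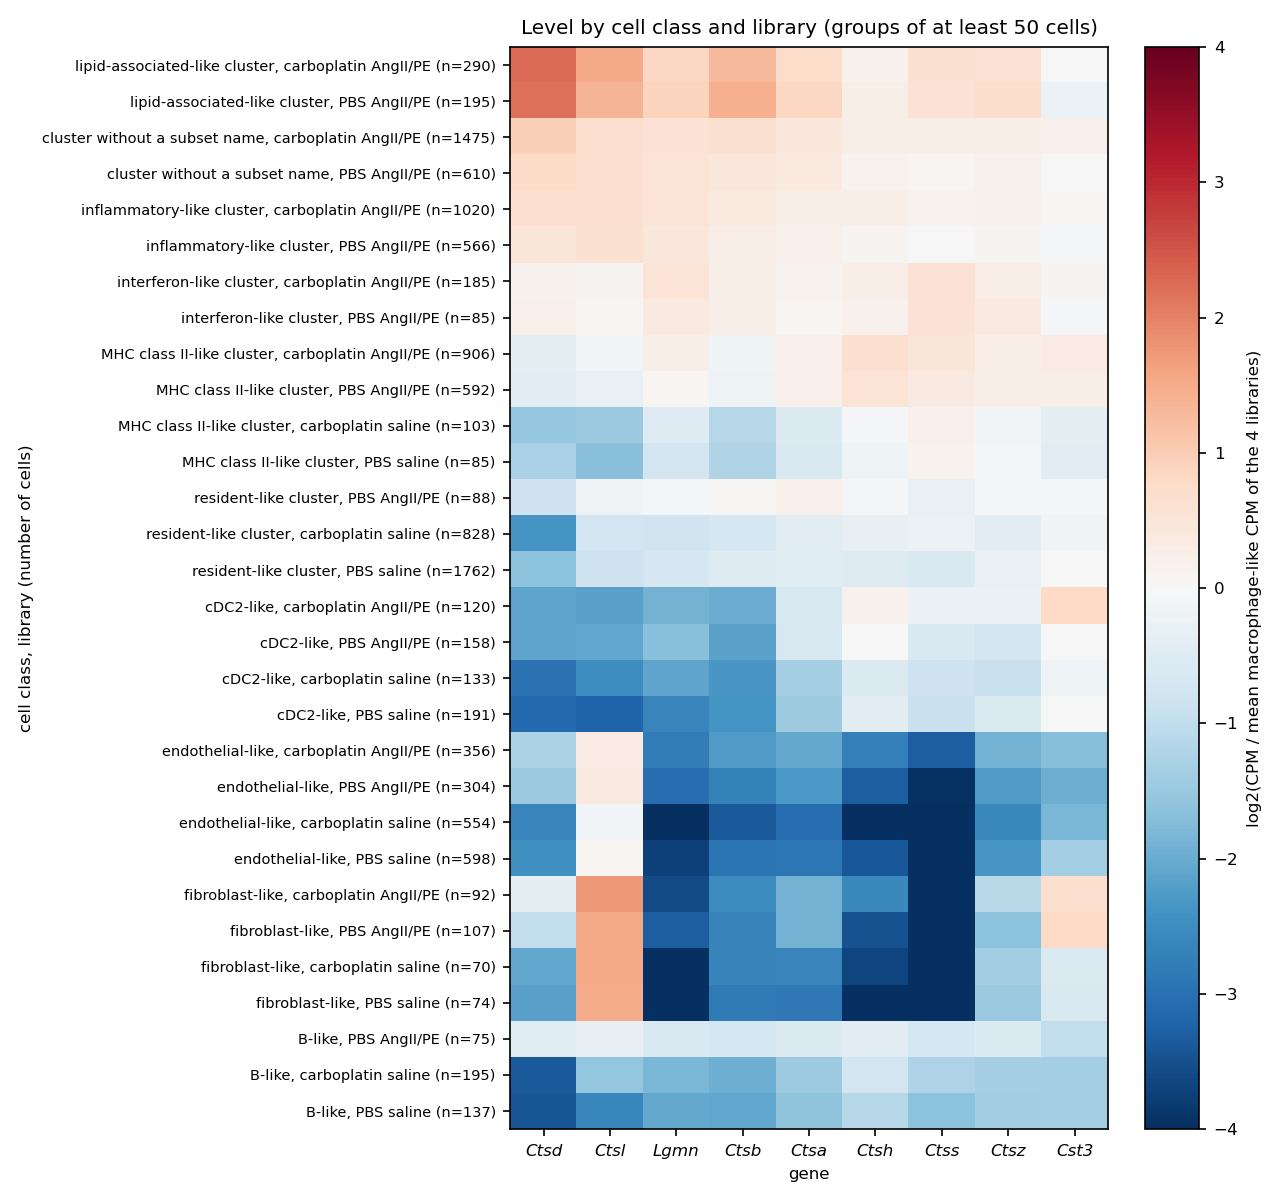
Level of the 9 measured genes in each cell class or macrophage cluster and library with at least 50 cells (n), as log2 of its CPM over the mean macrophage-like CPM of the 4 libraries; red is higher, blue lower, and values beyond the scale take its end colour. The darkest red is Ctsd in the lipid-associated-like cluster (4046 and 3898 CPM), and in fibroblast-like cells Ctsl is red in every library, Cst3 is red under AngII/PE (5361 and 6008 CPM) and pale blue under saline (2310 and 2246 CPM), and Ctss and Lgmn are blue.

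Within the clusters that both pumps share, most of the genes were also higher under AngII/PE. In the MHC class II-like cluster the comparison held 906 against 103 cells after carboplatin and 592 against 85 cells after PBS. There Ctsl had 258 CPM (carboplatin AngII/PE) and 227 CPM (PBS AngII/PE), against 99.9 CPM (carboplatin saline) and 88.2 CPM (PBS saline), ratios of 2.58 (2.23 to 3.01) and 2.57 (2.14 to 3.12). These match the ratios over the whole class. Ctsd had 657 and 612 CPM under AngII/PE, against 288 and 339 CPM under saline, and its ratios of 2.28 (2.09 to 2.49) after carboplatin and 1.81 (1.64 to 1.99) after PBS were far below the 5.81 and 4.18 of the whole class. Ctsb had ratios of 1.95 and 2.003, Lgmn 1.66 and 1.78, Ctsa 1.68 and 1.75, and Ctsh 1.58 and 1.66, in the order after carboplatin, after PBS.

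Cst3 and Ctss departed from their class values inside that cluster. Cst3 had 4300 and 4096 CPM under AngII/PE, against 2716 and 2581 CPM under saline, so its ratio was 1.58 (1.54 to 1.63) after carboplatin and 1.59 (1.53 to 1.64) after PBS, above that of the class. Ctss had ratios of 1.22 (1.18 to 1.26) and 1.17 (1.13 to 1.22), below those of the class, and Ctsz 1.30 and 1.22. At a finer clustering, the larger MHC class II-like cluster held 642 and 409 cells under AngII/PE against 24 and 17 under saline, carboplatin first. The smaller, with Retnla and Ear2 among its top genes, held 6 and 3 against 44 and 56. With the listed genes left out of the clustering, the MHC class II-like cluster held 19 and 18 saline cells. Whether the ratios inside the cluster compare like cells under both pumps was not tested.

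In the resident-like cluster the pumps could be compared after PBS only, with 88 cells against 1762. Ctsd had 475 CPM (PBS AngII/PE) against 270.3 CPM (PBS saline), a ratio of 1.76 (1.61 to 1.92). Ctsa and Ctsl were both at 1.61, Lgmn at 1.53, Ctsb at 1.50 (1.44 to 1.55), Ctsh at 1.35, Ctss at 1.23 and Ctsz at 1.198. Cst3, with 3323 CPM (PBS AngII/PE) against 3403 CPM (PBS saline), had a ratio of 0.976 (0.945 to 1.01). The gap between Cst3 and the proteases was thus present among resident-like cells as well, whereas in the MHC class II-like cluster Cst3 was higher by about as much as Ctsh.

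**Figure D4:**
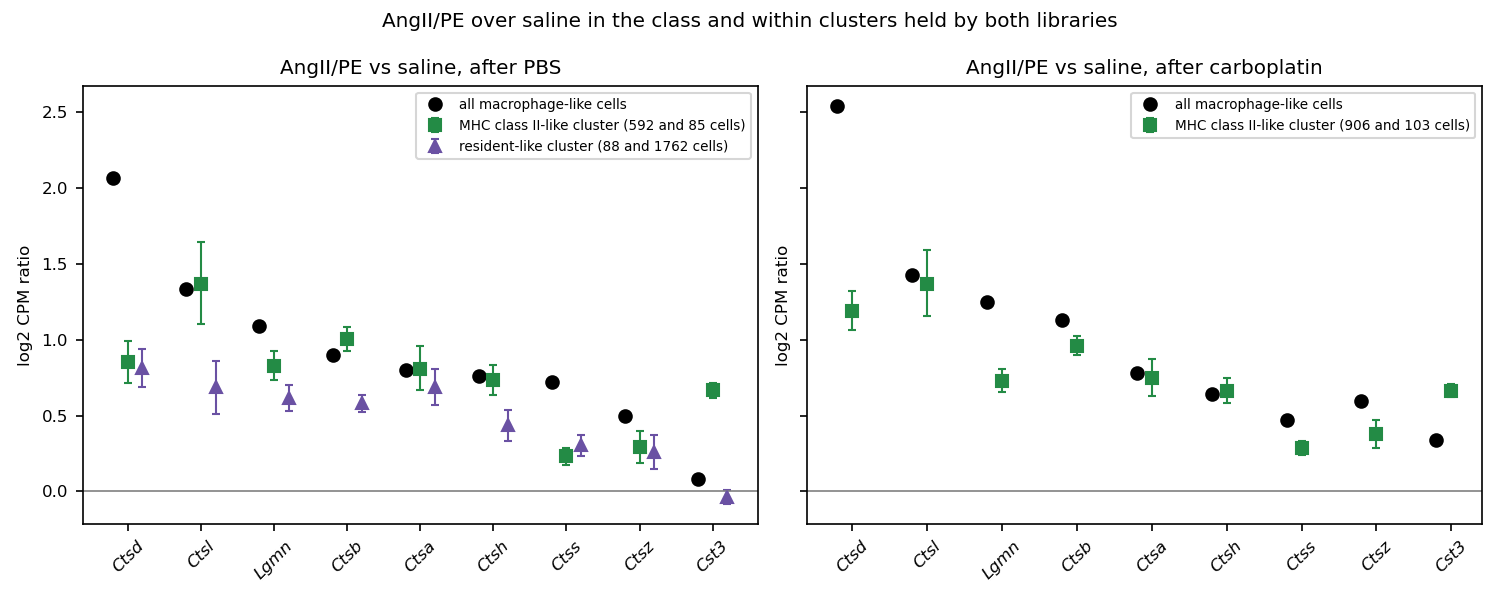
Log2 CPM ratio of AngII/PE over saline for the 9 measured genes after PBS (left) and after carboplatin (right), in all macrophage-like cells (black), the MHC class II-like cluster (green) and the resident-like cluster (purple, left only); whiskers are 95% counting intervals and the legend gives the cells under AngII/PE and saline. Ctsd reads 0.85 and 0.81 (left) and 1.19 (right) inside the clusters, beside 2.06 (left) and 2.54 (right) in the class, while Ctsl has nearly its class ratio in the MHC class II-like cluster.

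The carboplatin ratios under saline were also read inside the resident-like cluster, which held 828 cells of the carboplatin library and 1762 of the PBS library. Ctsd had 164 CPM (carboplatin saline) against 270.3 CPM (PBS saline), a ratio of 0.607 (0.579 to 0.637), further from 1 than over the class and past the 1.5-fold limit. Ctss had 1619 CPM against 1259 CPM, a ratio of 1.29 (1.26 to 1.31), and Ctsh 1.15 (1.12 to 1.18). In the MHC class II-like cluster (103 and 85 cells) the same ratios were 0.850 (0.750 to 0.964) for Ctsd, 1.06 (1.01 to 1.11) for Ctss and 1.11 (1.02 to 1.21) for Ctsh. The Ctsd ratio under saline depended on how the class was drawn: its log2 value was -0.33, but 0.02 at a clustering resolution of 1.2 and 1.13 with log-normalised values, where the class held only 134 cells of the carboplatin saline library.

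Among the other sorted cells were cDC2-like cells, conventional dendritic cells that present antigen. These had low Ctsb, Ctsd, Ctsl and Lgmn beside macrophage-like cells, and about as much Cst3 or more. They had 193 (carboplatin AngII/PE) and 194 CPM (PBS AngII/PE) of Ctsd, against 108 (carboplatin saline) and 97.6 CPM (PBS saline). For Ctsl these values were 61.9 and 66.3 CPM, against 49.8 and 30.02 CPM, and for Lgmn 307 and 355 CPM, against 264 and 184 CPM. The summed C1q genes, which mark macrophages, stood at 12.8% to 26.8% of their macrophage-like level in these cells, and Ctsd, Ctsl and Lgmn at 13.2% to 42.9% of theirs. The part of macrophage RNA in the values was not tested. Ctsh was at 82.3% to 103% of its macrophage-like level and Ctss at 57.4% to 77.6%. Ctsa was at 50.3% to 53.7% and Ctsz at 51.1% to 79.9%. Cst3 had 6003 CPM (carboplatin AngII/PE) and 3395 CPM (PBS AngII/PE), against 3048 CPM (carboplatin saline) and 3397 CPM (PBS saline), so that the carboplatin AngII/PE library, with 120 cells, stood apart. Its ratio to PBS AngII/PE was 1.77 (1.72 to 1.82).

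Endothelial-like cells carried Ctsl at 347 (carboplatin AngII/PE) and 354 CPM (PBS AngII/PE), against 256 (carboplatin saline) and 295 CPM (PBS saline), while Ctss, at 194 and 123 CPM against 82.5 and 110 CPM, was at 4.78% to 8.27% of its macrophage-like level. Ctsd was at 348 and 303 CPM there, against 136 and 153 CPM, with ratios of 2.56 after carboplatin and 1.98 after PBS. Cst3 was at 1065 and 896 CPM, against 976 and 1349 CPM. Its ratio was 1.09 (1.04 to 1.14) after carboplatin but 0.664 (0.635 to 0.694) after PBS. The C1q genes were at 4.97% to 9.60% in these cells, and the part of macrophage RNA in the values was not tested. Cardiomyocyte-like, B-like and neutrophil-like barcodes had C1q at 17.4% to 80.7% of the macrophage-like level, and their cathepsin values are not read.

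Fibroblast-like cells numbered 92 (carboplatin AngII/PE), 107 (PBS AngII/PE), 70 (carboplatin saline) and 74 (PBS saline), and held C1q at 1.38% to 3.52% of the macrophage-like level. Their Ctsl was 927 (carboplatin AngII/PE) and 805 CPM (PBS AngII/PE), against 790 (carboplatin saline) and 773 CPM (PBS saline). It differed little between pumps, with ratios of 1.17 (1.08 to 1.27) after carboplatin and 1.04 (0.958 to 1.13) after PBS. The first interval lies above 1. Most Ctsk UMIs were found here in every library except PBS saline. These cells were 1.62% to 2.78% of the cells kept and held 76.2% (carboplatin AngII/PE) and 79.3% (PBS AngII/PE) of all Ctsk UMIs, against 54.8% (carboplatin saline) and 42.1% (PBS saline). Ctsk stood at 202 CPM (327 UMIs) and 210 CPM (395 UMIs) under AngII/PE, against 51.7 CPM (63 UMIs) and 33.3 CPM (40 UMIs) under saline, in the order carboplatin, PBS. Both AngII/PE libraries were well above both saline libraries, with ratios of 3.91 (2.98 to 5.21) after carboplatin and 6.32 (4.56 to 8.98) after PBS.

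Cst3 in fibroblast-like cells was 5361 CPM (carboplatin AngII/PE) and 6008 CPM (PBS AngII/PE), against 2310 CPM (carboplatin saline) and 2246 CPM (PBS saline), a pump ratio of 2.32 (2.22 to 2.42) after carboplatin and 2.68 (2.56 to 2.79) after PBS. In macrophage-like cells the same ratios were 1.27 and 1.06. Ctsd was 656 and 424 CPM, against 199 and 186 CPM, ratios of 3.29 (2.86 to 3.80) and 2.28 (1.97 to 2.66). Ctsb differed little, with ratios of 1.12 and 1.11 whose intervals include 1. The 5 mice of a pool cannot be told apart in any of these values.

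**Figure D5:**
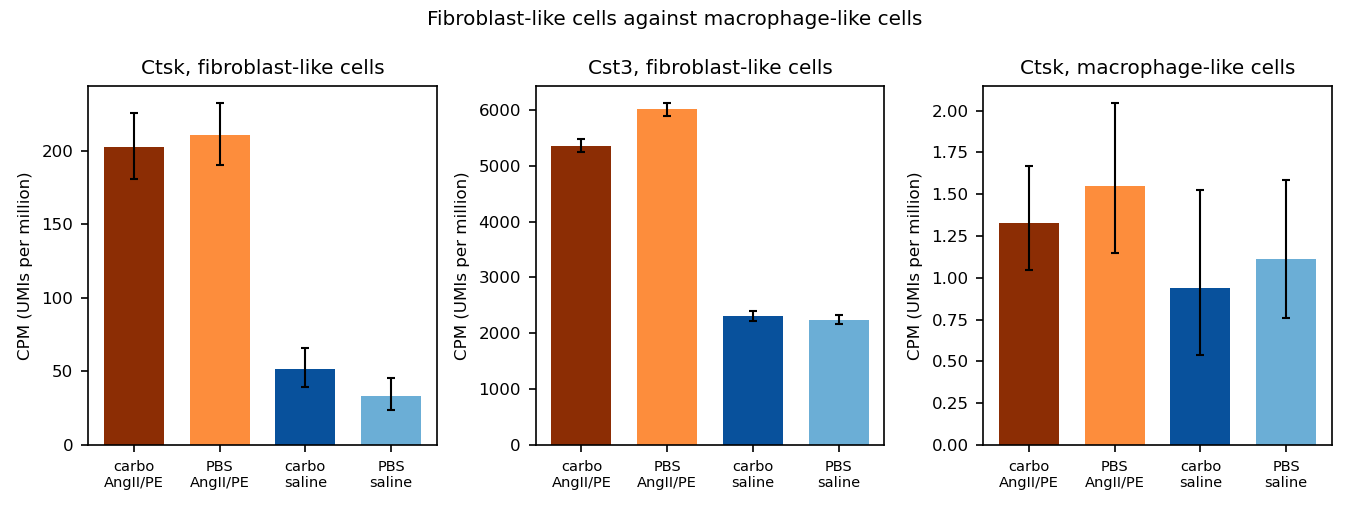
Ctsk and Cst3 in fibroblast-like cells and, for scale, Ctsk in macrophage-like cells, in CPM on linear axes from 0, by library; whiskers are exact Poisson 95% intervals and the y axes differ. Ctsk in fibroblast-like cells reads 202 and 210 CPM under AngII/PE against 51.7 and 33.3 CPM under saline, and at most 1.55 CPM in macrophage-like cells.

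Markers of other cells inside the macrophage-like class were summed beside these values. The 7 fibroblast markers summed to 33.1 (carboplatin AngII/PE) and 36.3 CPM (PBS AngII/PE), against 19.2 (carboplatin saline) and 10.4 CPM (PBS saline), and 4 of the 7 were higher in both AngII/PE libraries. The 8 endothelial markers summed to 61.6 and 69.6 CPM, against 54.5 and 45.0 CPM, and 3 of 8 were. The 6 neutrophil markers summed to 75.8 and 82.2 CPM, against 45.0 and 71.5 CPM, and 5 of 6 were, with 1 marker at 0 in each saline library. The 6 cDC2 markers moved the other way, with 111 and 129 CPM, against 707 and 740 CPM, and 1 of 6 was higher. No fibroblast, endothelial or cDC2 marker was at 0 in any library, and the part of such RNA in the cathepsin values was not tested. Median mitochondrial shares were 2.60% (carboplatin AngII/PE) and 2.73% (PBS AngII/PE), against 3.06% (carboplatin saline) and 2.57% (PBS saline).

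Cells called female by their sex-linked genes made up 49.6% (carboplatin AngII/PE) and 29.4% (PBS AngII/PE) of macrophage-like cells, against 55.3% (carboplatin saline) and 45.6% (PBS saline). The pump ratio of Ctsd was nearly the same in both sexes, after carboplatin 5.29 for cells called female beside 5.83 for cells called male, and 4.12 in both after PBS. That of Ctsl was smaller in female-called than in male-called cells, 2.22 against 3.07 after carboplatin and 1.78 against 3.13 after PBS. Ctss had a carboplatin ratio under saline of 1.14 (female-called) and 1.57 (male-called). The number of mice behind each sex in a pool is not given, and the differences between sexes were not tested.

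Lists of related genes give the surroundings of these values. Of 8 other cathepsins, 3 were measured. Ctsc, the activator of granule serine proteases, was at 1813 CPM (carboplatin AngII/PE) and 1503 CPM (PBS AngII/PE), against 1514 CPM (carboplatin saline) and 1649 CPM (PBS saline), with pump ratios of 1.197 and 0.912. Ctsf was the 1 of these 3 past 1.5-fold, lower at 0.539 after carboplatin and 0.602 after PBS. Ctso had ratios of 1.02 and 1.10. Higher transcript levels were thus not shared by all cathepsins.

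Of 11 cystatins and stefins, 1 was measured. Cstb, the cytosolic inhibitor of cysteine cathepsins, had 304 (carboplatin AngII/PE) and 302 CPM (PBS AngII/PE), against 176 (carboplatin saline) and 192 CPM (PBS saline), 1.73-fold and 1.58-fold higher. Of 10 serpins and other inhibitors, 2 were measured. Serpinb8 was lower under AngII/PE, at 0.432 after carboplatin and 0.361 after PBS, and Serpinb6a had ratios of 1.16 and 0.755.

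Of 14 genes of lysosomal sorting, 12 were measured, 2 were 1.5-fold higher under AngII/PE in both settings and none was lower. These were Cd63, a membrane protein of late endosomes, at 2.30 after carboplatin and 1.73 after PBS, and Gga2, a sorting adaptor, at 1.59 and 1.64. Lamp1 was at 1.49 after carboplatin. Their median log2 ratio was 0.35 after carboplatin and 0.30 after PBS. All 8 genes of the lysosome transcription factor list were measured, with medians of 0.02 and -0.08, and 2 were 1.5-fold higher after carboplatin and 1 after PBS. Fnip2, a partner of folliculin, was at 1.64 in both settings. Tfec, of the TFEB family, was at 1.86 after carboplatin but 0.834 (0.750 to 0.928) after PBS, and it was the 1 gene of these lists past 1.5-fold between carboplatin and PBS under saline, at 0.529 (0.454 to 0.615), with 13.4 CPM (carboplatin saline) against 25.4 CPM (PBS saline).

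All 10 activators, cofactors and partners of cathepsins were measured, and they split. After carboplatin, 1 was 1.5-fold higher and 3 lower under AngII/PE, and after PBS 3 were higher and 3 lower. Tpp1, a lysosomal tripeptidyl peptidase, was the 1 higher after carboplatin, at 1.86. Ifi30, the lysosomal thiol reductase that opens antigens for cleavage, was at 1.47 after carboplatin and 1.76 after PBS, Gm2a at 1.19 and 1.60, and Psap at 1.16 and 1.55. The MHC class II chaperones H2-DMa and H2-DMb1 were lower, at 0.407 and 0.410 after carboplatin and 0.528 and 0.571 after PBS. Cd74, the invariant chain that Ctss cuts, had 9081 CPM (carboplatin AngII/PE) against 25550 CPM (carboplatin saline), a ratio of 0.355, while Ctss was at 1.39. Between carboplatin and PBS under saline, Cd74 (1.35), Psap (1.36, the saposin precursor) and Gm2a (1.37) were higher together with Ctss (1.30), all under 1.5-fold, and the median log2 ratio of the list was 0.36, beside -0.03 over all genes. Under AngII/PE no measured gene of these 6 lists was 1.5-fold apart between carboplatin and PBS. The lists were drawn up with earlier results of these data known.

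The likeness of the genes was described by Pearson's r of log2(CPM + 1) over 21 groups of at least 50 cells, from 9 clusters in up to 4 libraries. Besides the macrophage-like clusters these were the cDC2-like, patrolling monocyte-like and cycling ones. The groups share libraries and clusters, so r is a description. Ctsb and Ctsl were the most alike pair (0.985), Lgmn was nearest to Ctsl (0.952), Ctsa and Ctsd to each other (0.949), and Ctsz to Ctsd (0.915). Ctss was nearest to Ctsz (0.911) and Ctsh to Ctsz (0.796). Cst3 stood apart, with its highest r at 0.498, with Ctsh, and values of 0.07 with Ctsd and -0.03 with Ctsb. Ctsd had the widest range over the groups, 5.46 on the log2 scale, and Cst3 the narrowest, 1.22. Cells other than macrophage-like ones set some ends of these ranges. The lowest Ctsd, 90.8 CPM, was in patrolling monocyte-like cells of carboplatin saline. The highest Cst3, 6003 CPM, was in cDC2-like cells of carboplatin AngII/PE.

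Among all other genes, those nearest to Ctsd were Atp6v0c (0.975), a subunit of the proton pump, and Trem2 (0.963), a lipid receptor. Those nearest to Ctsb were Cd68 (0.967) and Sft2d1 (0.964), those nearest to Lgmn Selenon (0.972) and Grik3 (0.970), and those nearest to Ctsl Grik3 (0.968) and Atp6v0b (0.955). For Ctss they were Npc2 (0.934) and Il18bp (0.906), and for Ctsz Fth1 (0.954) and Atp6v0c (0.951). Ctsa was nearest to Ftl1-ps1 (0.980), a near-identical copy of a ferritin gene whose count is uncertain, and to Trem2 (0.974). No gene came as near to Cst3, with 0.723 for Stx7 and 0.708 for Ube2d1.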

How the data were processed

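What was deposited are raw UMI counts for each gene in each barcode, made by the authors with Cell Ranger 7.1.0 per the file headers and aligned to mm10 per the labels' protocols. Strand and intron settings are not given in the sources used here. Cells with under 10% mitochondrial UMIs, under 30000 UMIs and 500 to 7000 genes were kept, the limits of the series' design text, and left 17312 of 27968 barcodes. That text gives 17438 of 38066, and the difference is not accounted for. Cells were normalised with SCTransform (Seurat 5.3.0, sctransform 0.4.2, R 4.3.3) and clustered into 23 clusters, which were named from marker lists. Names were rebuilt and may differ from the study's. Scrublet (scanpy 1.11.5) called 51 cells (0.295%), too few to have worked, and no cell was removed as a doublet. From the counts, UMIs were summed per library and class and given as CPM of the class total, with exact Poisson intervals. Ratios have exact conditional binomial intervals at 95.0% confidence, and shares Clopper-Pearson intervals. UMIs of a pool of 5 mice show nothing of the spread between mice. Genes with a mean of 10 CPM or more in macrophage-like cells were compared, and at least 1.5-fold counts as apart. Strand overlap, sequences and positions come from RefSeq (GRCm38.p6) and the GENCODE annotation of mm10, which held 32158 of the 32285 gene IDs.

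The text names every one of the 10 genes, up to 3 genes per related list with the ratio farthest from 1 in each comparison, and for each gene the 2 nearest by correlation, except for Ctsh and Ctsk, whose nearest genes are not reported here. A gene named for 1 comparison is also given in others. The genes and lists were chosen with earlier results of these data known. The scripts were tested on simulated data. Alternatives were edgeR TMM (4.0.16) and median-of-ratios scaling, no filter on low values, other clusterings, cell filters, sexes and weights.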

Additional observations from a re-analysis of the deposited data

Results flagged for a closer look

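For 4 genes the carboplatin library was higher than the PBS library under AngII/PE and lower under saline with both counting intervals excluding 1, and for Ctsl and Ctsz with at least 1 interval that includes 1. For the 4, the log2 carboplatin ratio under AngII/PE minus that under saline was 0.47 for Ctsd, 0.26 for Cst3, 0.23 for Ctsb and 0.16 for Lgmn. These differences were not tested, since each group is 1 library. Between sexes, the log2 carboplatin ratio under saline had opposite signs in female-called and male-called cells for Ctsl (a female minus male difference of -0.32) and Ctsz (0.27), with both intervals excluding 1, also untested. For Ctsa the signs were opposite as well, at -0.03 (female-called) and 0.07 (male-called), without both intervals excluding 1.

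In the barcodes that the filters left out, Ctsd, Lgmn, Ctsl and Ctsk were at least 2-fold higher under AngII/PE, both after carboplatin and after PBS. They are given here because they passed that limit. Ctsd stood there at 1076 CPM (carboplatin AngII/PE) and 789 CPM (PBS AngII/PE), against 225 CPM (carboplatin saline) and 224 CPM (PBS saline). Lgmn stood at 1028 and 763 CPM, against 411 and 361 CPM, Ctsl at 334 and 315 CPM, against 110 and 95.8 CPM, and Ctsk at 17.3 and 33.8 CPM, against 2.24 and 1.58 CPM, in the same order. The other genes did not pass the limit in both settings. Cst3 stood at 3185 and 2805 CPM, against 2828 and 3269 CPM, so it was lower under AngII/PE after PBS. The left-out barcodes hold all cell types together, and no class was named among them.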

How the results depend on the processing

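In 15 alternatives Ctsa, Ctsb, Ctsd, Ctsh, Ctsl and Lgmn stayed at least 1.5-fold higher under AngII/PE after carboplatin and after PBS, and no pump ratio of the 9 measured genes changed sign. At a fold of 2 the number of the 9 genes apart under AngII/PE was 4 after carboplatin, where 1.88% of all genes were higher, and 3 after PBS, where 2.85% were. Between carboplatin and PBS under saline the number apart was 2 with log-normalised clustering, where the class held 134 cells of carboplatin saline, and 1 in male-called cells, against 0 as reported. The log2 pump ratio of Ctsd lay between 0.71 and 2.75 after carboplatin and between 0.84 and 2.10 after PBS, lowest where the shared clusters weigh equally (after PBS) or with log-normalised clustering (after carboplatin). Leaving out the lipid-associated-like cluster, or that and the cluster without a subset name, was added after seeing the data. The causes of these differences were not tested. Under saline the carboplatin ratio changed sign in 8 of 15 alternatives for Ctsl, 3 for Ctsa, 2 each for Ctsd, Ctsz and Lgmn, and 1 for Ctsb, and in none for Ctsh, Ctss and Cst3. No paired analysis was possible because each group is 1 library and the labels carry no replicate numbers. Depth limits Ctsk in macrophage-like cells, with 16 to 75 UMIs, and the clusters with under 50 cells.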
